A study of Mus musculus with 8 samples.

Results

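The 11 stretches of the mouse genome described here, each 1 Mb long except one, were chosen because they hold many regions where Rad21 was found whatever the edited allele. A region is a set of overlapping peaks (by at least 1 bp) from any of 8 libraries, and a shared region has a peak in all 8. The windows, in mm9 coordinates, are chromosome 1 at 85 to 86 Mb (called chr 1a) and at 133 to 134 Mb (chr 1b), chromosome 2 at 26 to 27 Mb, chromosome 4 at 140 to 141 Mb, chromosome 7 at 25 to 26 Mb, chromosome 8 at 74 to 75 Mb, chromosome 10 at 79 to 80 Mb, chromosome 11 at 3.2 to 4 Mb (chr 11a) and at 101 to 102 Mb (chr 11b), chromosome 14 at 70 to 71 Mb, and chromosome 19 at 10 to 11 Mb. Every peak that starts in one of them is a member: 4205 of the 199072 peaks of the 8 lists, forming 1175 of 64772 regions, of which 170 are shared, among 6747 shared regions in all. The windows were chosen by the number of shared regions they hold, counted in these same lists, so that number is given as a description. It ran from 14 to 21, against a median of 3 over the 1660 windows of 1 Mb that held any. The choice is not a pure threshold: 3 further windows also held 14 shared regions and are not members (chromosome 8 at 122 Mb, chromosome 11 at 96 Mb and chromosome 17 at 35 Mb), and the next 11 held 13. The chr 11a window was set to start at 3.2 Mb, and 6 of the 20 shared regions of that megabase lie before it and are no members.

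All libraries came from CH12F3, a mouse B lymphoma line, made deficient in AID (AID-/-), the enzyme whose cytidine deamination initiates antibody class switching, and stimulated for 72 hours with anti-CD40, IL4 and TGF-β. There were 4 genotypes of the engineered Igh allele with 2 libraries each. Iγ3-FS-Cα-AID-/- (FS_Ca) lost the stretch from Cg3 to Ia and kept Sg3 and Sa at full length, and Iγ3-PS-Cα-AID-/- (PS_Ca) kept only parts of both switch regions. Both were made in cells that already carried a deletion from VH to the 3'BCEs on the IgH allele that is not expressed. Iγ3-FS-Iα-AID-/- (FS_Ia), with a deletion from Cg3 to Ca and full-length switch regions, and Iγ3-PS-Iα-AID-/- (PS_Ia), with partial ones, were made in aInv cells. The Ia against Ca comparison is called orientation and the PS against FS comparison switch length. Both Ca lines share their parental cells and deletion, and both Ia lines share others. Orientation therefore cannot be told apart from the parental cells or from the extent of the deletion. Igh lies on chromosome 12, so none of the windows is on the edited chromosome. Nothing in the labels tells whether a genotype's 2 libraries are separate cultures or clones, so p-values measure only the spread between these samples.

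Rad21 is the kleisin subunit that closes the cohesin ring. Cohesin extrudes chromatin loops and is held where CTCF is bound, so a ChIP-seq peak of Rad21 usually marks a loop anchor or a site where loading and extrusion pause. Anchors of neighbouring loops lie at separate places along a chromosome. A sequence that exists in several near-identical copies behaves otherwise in such data: reads from all copies can pile up on the copies that the assembly contains, and the peaks there tend to be tall, wide and crowded, also where the protein is not enriched.

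The lists held from 11288 peaks (PS_Ca replicate 2) to 47461 peaks (PS_Ia replicate 2), and median peak widths ran from 345 to 596 bp. Per peak, the authors' fold enrichment is the summit over 1 expected background per library, from which the summit height in fragments can be read. That background lay between 0.223 and 0.862 fragments. The lowest summit called was 3 to 5 fragments high, so a region missing from a short list was below its threshold and is not shown to be unbound. The peak names carry 3 prefixes, one in all 4 FS libraries, another in both PS libraries numbered 1 and the last in both numbered 2. No prefix spans both switch lengths, so the naming set cannot be told apart from switch length.

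The windows fell into 2 kinds. In chr 1a, all peaks of all lists were packed into the first 344 kb, and the other 656 kb of the window held no peak in any library. Its 21 shared regions lay a median of 5.85 kb apart, from 1.55 to 64.2 kb. That median depends on how regions are drawn: with regions built from summits, 9 shared sites were left in chr 1a at a median of 24.3 kb, beside 31.7 kb on chromosome 4, the next closest. In the other 10 windows, 149 shared regions were spread across the windows, with median gaps between 35.5 kb (chromosome 14) and 55.8 kb (chromosome 7), and 96 of their 139 gaps (69.1%) measured 10 to 100 kb. Of those 139 gaps, 8 were under 5 kb, against 7 of 20 in chr 1a.

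**Figure D1:**
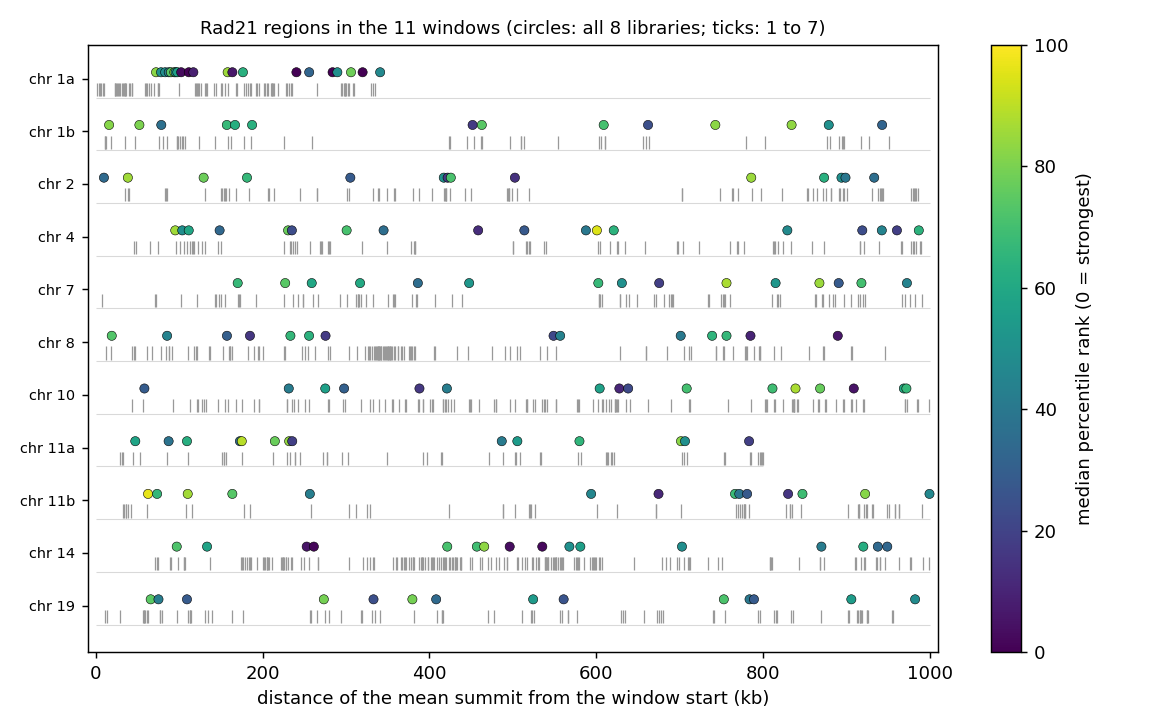
Rad21 regions along the 11 windows, with the distance of the mean summit from the window start in kb on the x axis and 1 row per window; circles are the 170 regions found in all 8 libraries, coloured by median percentile rank among all shared regions (0 is the strongest), and grey ticks are regions of 1 to 7 libraries. In chr 1a everything lies in the first 344 kb, whereas the circles of the other rows run along the whole window.

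The chr 1a block reached past the window. Joining peaks of any list over gaps of up to 20 kb, it ran from position 84953419 to 85343650 of chromosome 1, or 390 kb, and 102 of its 965 peaks lay before the window. After it came 2000 kb without a peak in any list, and the next one started at 87343775. Peak-free stretches of that length are not rare in these lists: 92 were at least as long, 7 of them on chromosome 1. Past it, up to 88 Mb, lay 13 more shared regions of which 3 had a median peak width above 2 kb, with a best rank of 0.367. The mm9 sequence was not used here, so what these positions contain was not examined.

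4 tall regions carried chr 1a. The tallest, at chr1:85265393-85287045, had summits of 100 and 148 fragments in FS_Ca replicates 1 and 2, 97 and 106 in FS_Ia, 179 and 91 in PS_Ca, and 156 and 141 in PS_Ia. The region at chr1:85103771-85114464 had 91 and 129 fragments in FS_Ca, 95 and 116 in FS_Ia, 156 and 69 in PS_Ca, and 134 and 125 in PS_Ia. The region at chr1:85236096-85250590 had 91 and 106 in FS_Ca, 74 and 90 in FS_Ia, 130 and 63 in PS_Ca, and 110 and 105 in PS_Ia. For these 3 regions, PS_Ca held both the highest and the lowest library, so its range spanned those of the other genotypes. Both PS_Ia libraries were higher than both FS_Ia libraries in each of them. Heights are not scaled for depth, and the expected background was 0.622 and 0.862 fragments in PS_Ia and 0.293 and 0.223 in FS_Ia. The last, at chr1:85309603-85328296, had 54 and 80 in FS_Ca, 47 and 56 in FS_Ia, 88 and 38 in PS_Ca, and 128 and 97 in PS_Ia. Here both PS_Ia libraries were the highest, and PS_Ca replicate 2, the shortest list, was the lowest as in the other 3.

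The folds of these 4 regions ran from 24.6 to 102 over all lists, and in the order 85265393, 85103771, 85236096 and 85309603 their median ranks among the 6747 shared regions were 0.178, 0.196, 0.252 and 0.308 percent from the top. Their summits were at nearly the same base in every list, within 87 to 163 bp of one another. Their peaks were wide, with medians of 6570, 4147, 6248 and 4376 bp. Width moved with the library far more than position did: the tallest region was called as a single stretch of 15387 bp in PS_Ia replicate 2 and 13883 bp in PS_Ca replicate 1, but of 4077 bp in FS_Ia replicate 2. The distances between the 4 summits were 129, 43.4 and 36.001 kb. A region of the same height and width lies in the block just before the window and is therefore no member: chr1:84983319-84993184, with a median rank of 0.226, folds of 46.0 to 85.04 and a median width of 5194.5 bp. Its summits had 88 and 137 fragments in FS_Ca, 101 and 103 in FS_Ia, 144 and 72 in PS_Ca, and 110 and 122 in PS_Ia. It stands 119.7 kb before the first of the 4.

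**Figure D2:**
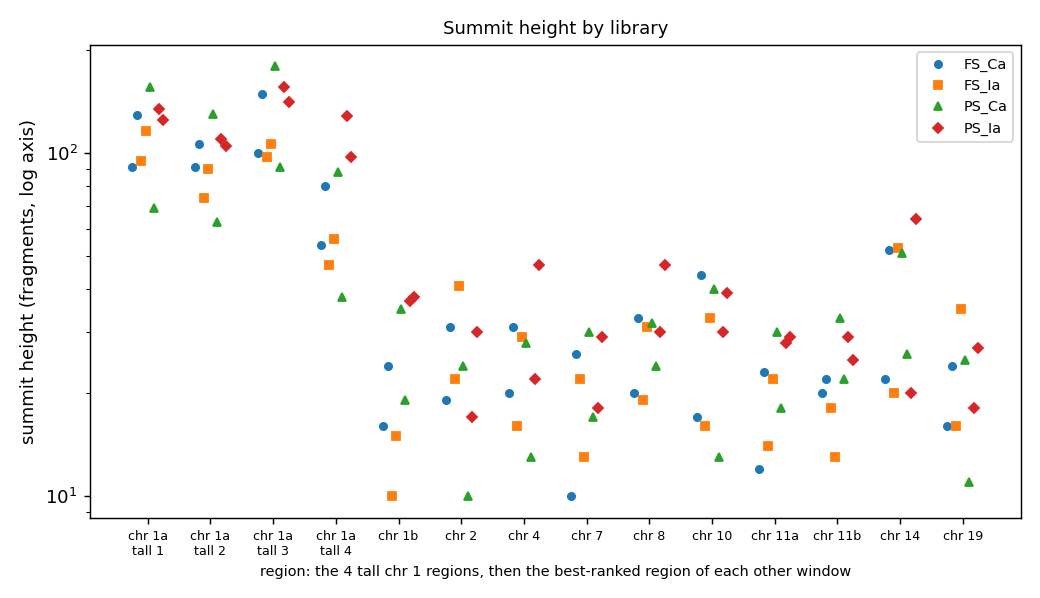
Summit height in fragments (log axis) in each of the 8 libraries, coloured and shaped by genotype, for the 4 tall chr 1a regions (in order of position) and the best-ranked shared region of each other window. The tall chr 1a regions lie between 38 and 179 fragments, and the best regions elsewhere have median heights of 20 to 38.5 fragments.

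Around the tall regions lay low, crowded ones. Of the 21 shared regions of chr 1a, 14 had median folds between 6.61 and 12.5 and ranks between 32.4 and 85.4, and the window's median rank was 48.9, against 50.8 over all shared regions. A run of 8 shared regions, each less than 5 kb from the next, stood at chr1:85075727-85103414. Its members ranked from 3.08 to 82.9. The median peak width of the 21 was 1294 bp, against 836 bp over all shared regions, and 19 of them (90.5%) were split into several peaks in at least 1 list, against 61.4%. Their summits also wandered more: the median SD of the summit position over the 8 lists was 222 bp, against 86.7 bp over all shared regions and 90.3 bp in the other 10 windows. In 3 of the low regions, at chr1:85250766-85263945, chr1:85335912-85343650 and chr1:85287308-85293955, the summits of the 8 lists were 7175, 6087 and 4791 bp apart at most, so that the lists had picked different parts of the same stretch.

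The number of peaks in chr 1a did not follow the length of the list. FS_Ca had 118 and 102 peaks there, FS_Ia 76 and 101, PS_Ca 113 and 125, and PS_Ia 109 and 119 (replicates 1 and 2). The shortest list, PS_Ca replicate 2, had the most. Over the 8 libraries, the number of peaks in chr 1a and the length of the list gave Pearson's r = 0.214 (exact permutation p = 0.594) and Spearman's rho = -0.0238 (exact permutation p = 0.977). In the other 10 windows as a set, the counts were 243 and 559 in FS_Ca, 223 and 457 in FS_Ia, 470 and 193 in PS_Ca, and 306 and 891 in PS_Ia. There the relation to list length was r = 0.988 (exact permutation p = 2.48e-05, the smallest these 8 values allow; adjusted over the 2 relations, 4.96e-05) and rho = 1 (exact permutation p = 4.96e-05, adjusted 9.92e-05). Without PS_Ca replicate 2 and PS_Ia replicate 2, the lists farthest from the median length, r was 0.388 in chr 1a (exact permutation p = 0.501) and 0.972 in the other 10 (exact permutation p = 0.00694). Within the 4 FS libraries the values were 0.316 (exact permutation p = 0.792) and 0.992 (exact permutation p = 0.0417), and the other sets hold 2 libraries each and are too small. The difference between the 2 relations was not itself tested. Peaks in the windows are part of the list whose length they are set against, and no other windows were compared. A longer list can be expected to hold more peaks in most places. The p-values of the other 10 windows therefore show no trait particular to those windows. As a share of all peaks in the 11 windows, chr 1a held from 11.8% in PS_Ia replicate 2 to 39.3% in PS_Ca replicate 2.

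**Figure D3:**
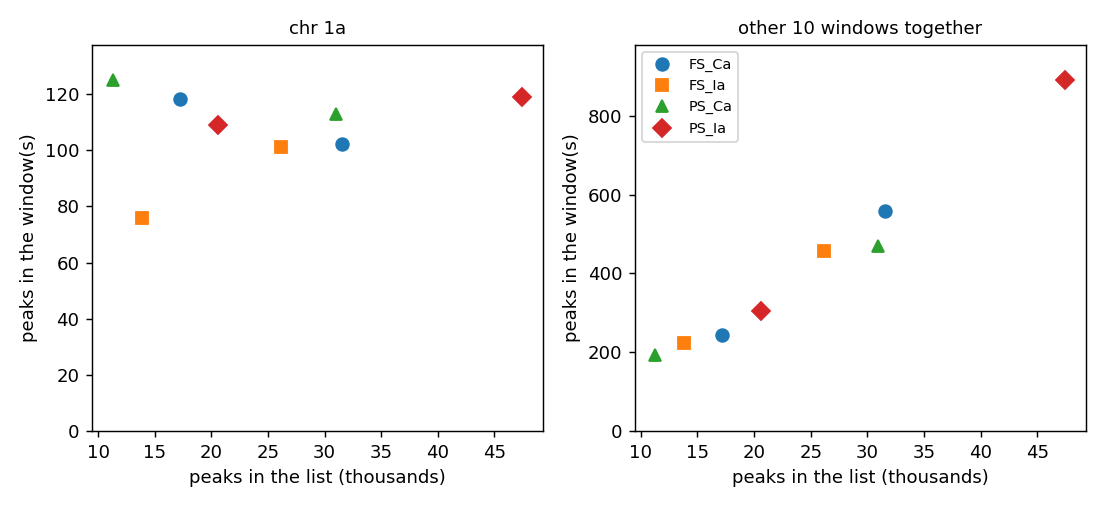
Peaks in chr 1a (left) and in the other 10 windows together (right) against the number of peaks in the list, 1 point per library, with the genotype as the symbol. The left points lie between 76 and 125 at any list length, and the right points rise from 193 to 891.

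Peaks covered 14.3% (FS_Ia replicate 1) to 52.1% (PS_Ia replicate 2) of the occupied 344 kb, at 22.1 to 36.4 peaks per 100 kb. Unlike the number of peaks, the covered length was mostly greater in the longer lists. From the shortest list to the longest it was 78.2 kb (PS_Ca replicate 2), 49.2 kb (FS_Ia replicate 1), 74.8 kb (FS_Ca replicate 1), 137.8 kb (PS_Ia replicate 1), 55.1 kb (FS_Ia replicate 2), 149.3 kb (PS_Ca replicate 1), 160.6 kb (FS_Ca replicate 2) and 179.1 kb (PS_Ia replicate 2). PS_Ca replicate 2 broke this order by covering more than the longer lists of FS_Ia replicate 1 and FS_Ca replicate 1. FS_Ia replicate 2 broke it by covering less than the shorter lists of PS_Ca replicate 2, FS_Ca replicate 1 and PS_Ia replicate 1. A count of peaks falls where neighbouring peaks are called as a single one, so the counts above do not show that the signal there was independent of list length. Peaks in chr 1a had a median width of 365 to 414 bp in the lists of PS_Ca replicate 2, FS_Ca replicate 1 and FS_Ia replicate 2, 473 bp in FS_Ia replicate 1, and 632 to 782 bp in the other 4.

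The 4 signs of possible multicopy sequence counted for every shared region were a fold in the top 1% of the list in at least 6 libraries, a median peak width above 2 kb, a place in a run of 3 or more shared regions with gaps under 5 kb, and a gap to a neighbour that matched another gap of the window within 100 bp. At least 2 signs were met by 0.385% of all 6747 shared regions, by 5 of the 21 in chr 1a and by 0 of the 149 in the other 10 windows. Because the rule favoured crowded windows, the count in chr 1a is a description. The 5 were the 4 tall regions and chr1:85075727-85080605, whose peaks were 2648 bp wide at a median fold of 9.74. The copy number of these sequences was not measured and their mappability was not tested. Outside the windows, 21 shared regions had at least 2 signs, and all 21 had a median rank of at most 5. They were 21 of the 177 regions of such a rank there (11.9%). Among regions of such a rank in the windows, it was 4 of 5 in chr 1a and 0 of 3 in the other windows.

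**Figure D4:**
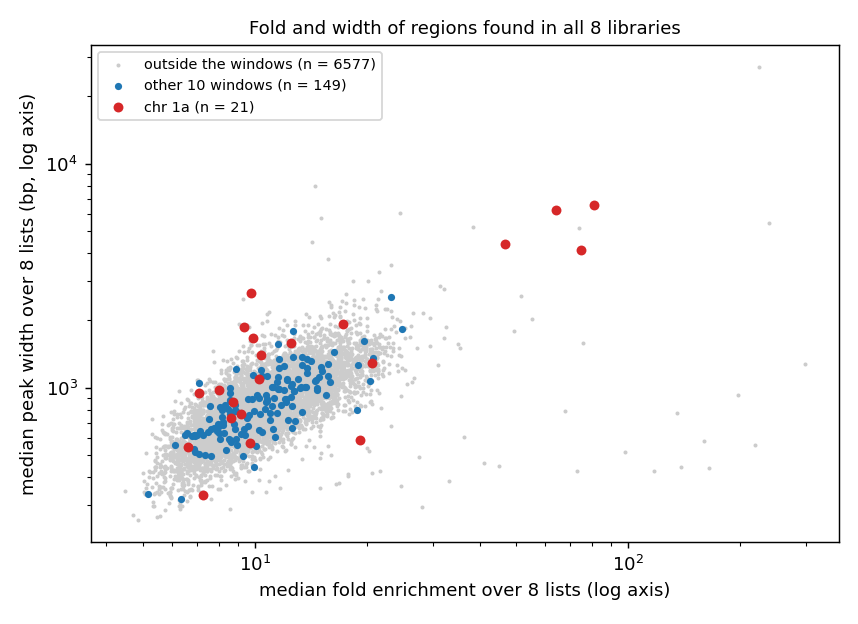
Median peak width in bp against median fold enrichment over the 8 lists (both log axes) for each shared region: grey, outside the windows; blue, the other 10 windows; red, chr 1a. The 4 tall chr 1a regions lie at the upper right with 3 grey points that reach both their lowest median fold (46.7) and their lowest median width (4147 bp). Of these 3, 1 is chr1:84983319-84993184, just before the window, and 2 lie on chromosome 9 with higher median folds of 225 and 238. The blue points overlie the grey cloud.

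Outside chr 1a, height and width were those of ordinary shared regions. The 149 regions had a median rank of 49.8 and a median width of 838 bp, beside 50.9 and 835 bp for the 6577 shared regions outside the windows. 1 of them was wider than 2 kb and none was in the top 1% of its list in 6 libraries. That one, at chr14:70256491-70264799, was also the best-ranked of the 149 (rank 1.63), with folds from 12.9 to 44.2 and summits of 20 to 64 fragments. The start of chr 11a at 3.2 Mb bears on this count. Over the whole megabase from 3 Mb, 4 of 20 shared regions were wider than 2 kb, with a median gap of 22.6 kb. In chr 11a itself it was 0 of 14, with a median gap of 39.7 kb.

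Chromosome 14 held the 3 best-ranked sites of the 10 windows. Besides the region just named, those at chr14:70532236-70537650 (folds of 12.6 to 35.2), chr14:70494498-70501467 (13.9 to 29.5) and chr14:70249886-70255590 (10.8 to 27.8) ranked at 2.00, 3.28 and 5.71, the last behind a site on chromosome 10 at 5.46. The first and the last of these 4 positions lie 8.57 kb apart, as the closest pair of the window. Its 16 shared regions stood among 197 regions in all, the most of any window, of which 128 were found in 1 library only. PS_Ia replicate 2, the longest list, had 164 peaks here and PS_Ca replicate 2 had 22.

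Chromosome 7 had the most regular spacing. Its 15 shared regions were separated by 57.0, 31.8, 58.0, 69.3, 61.5, 155, 28.3, 44.8, 80.7, 58.9, 52.6, 23.1, 27.3 and 54.6 kb in order of position, and 13 of the 14 gaps were between 10 and 100 kb. The coefficient of variation (CV, the SD of the gaps over their mean) was 0.572, where equal gaps would give 0 and random positions a value near 1. It lay between 0.571 and 0.573 when each list's own summits were used. These values rest on the same 15 regions, whose summits had a median SD of only 70.7 bp over the lists. Their close agreement was thus built in and does not replicate the spacing. The exception was the 155 kb gap between chr7:25447186-25448156 and chr7:25601542-25603418. None of these sites was tall: the best, at chr7:25674415-25676890, ranked at 18.6, with folds of 7.89 to 17.8 and summits of 10 to 30 fragments.

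The remaining windows were less regular by this measure. Their CVs ran from 0.842 (chromosome 19) and 0.905 (chromosome 10) through 0.973 (chr 1b), 0.983 (chromosome 14), 0.985 (chromosome 4), 1.07 (chromosome 2) and 1.09 (chromosome 8) to 1.19 (chr 11b) and 1.21 (chr 11a), and that of chr 1a was 1.16. In the 88 other windows with at least 10 shared regions, the median CV was 0.856, with quartiles of 0.734 and 1.01, and 5 of them were below chromosome 7. Their median gap was a median of 60.2 kb, with a lowest value of 8.80 kb, so that none was as closely packed as chr 1a with regions drawn from overlaps. With regions built from summits, where chr 1a had 24.3 kb, the 88 windows were not compared. When peaks with a −log10 q under 5 were dropped, the CV of chromosome 7 was 0.784 and the lowest of the 11 was 0.613, in chr 1b. Each of these 2 windows then held only 6 shared regions, so their CVs rest on few gaps.

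**Figure D5:**
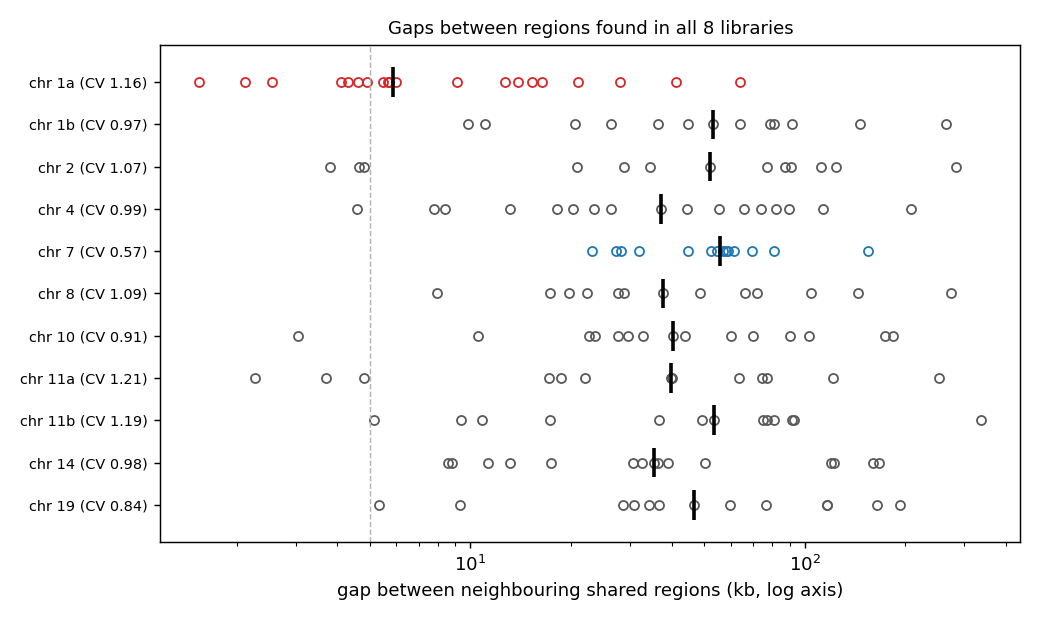
Gaps in kb (log axis) between neighbouring shared regions in each window, 1 circle per gap, with the median as a bar, the coefficient of variation (CV) beside the window's name and a dashed line at 5 kb. The chr 1a gaps centre on 5.85 kb (24.3 kb with regions built from summits), those of chromosome 7 lie mostly between 23.1 and 80.7 kb, and the other rows spread over a wider range.

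Long stretches without a shared region stood beside close pairs and groups. In chr 11b, 337 kb separated chr11:101255867-101257493 from chr11:101593259-101594848, whereas 3 regions lay close together at chr11:101765738-101782521, with ranks of 67.9, 38.9 and 28.1. Its strongest site, at chr11:101673157-101676893 (rank 11.3), had folds of 11.4 to 19.2. In chr 11a, the widest gap was 251 kb, from chr11:3433911-3437394 to chr11:3684904-3688349, and the closest pair, 2.26 kb apart at chr11:3372151-3374218 and chr11:3374694-3375229, joined a region of rank 34.6 to a weak one of rank 89.2 that was only 321 bp wide.

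Chromosome 2 had the only other run of 3 shared regions with gaps under 5 kb, at chr2:26415622-26426723. The ranks in it were 50.2, 16.7 and 71.3, none of its peaks was above 2 kb in median width and no gap of the window repeated, so it carried 1 of the 4 signs. A stretch of 284 kb without a shared region followed the window's best site, chr2:26501770-26503376 (rank 14.1). That site had summits of 19 and 31 fragments in FS_Ca, 22 and 41 in FS_Ia, 24 and 10 in PS_Ca and 17 and 30 in PS_Ia.

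On chromosome 4, 18 shared regions lay a median of 37.0 kb apart. The best, chr4:140457091-140462022 (rank 12.8), had folds of 8.82 to 25.8, and the widest gap, of 208 kb, came before chr4:140828088-140831427. Chromosome 10 had 16, with the best at chr10:79907075-79910946 (rank 5.46; folds of 8.82 to 27.8), a closest pair 3.06 kb apart and a widest gap of 183 kb. Chromosome 8 had 14, and its best site, chr8:74888737-74892788 (rank 6.06), had folds of 15.1 to 26.2.

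Chr 1b and chromosome 19 had 14 shared regions each. The best of chr 1b was chr1:133450776-133453123 (rank 16.8), which stands 265 kb after its neighbour, and this window had the weakest median rank of the 11, 65.1. On chromosome 19 the best was chr19:10332292-10334345 (rank 24.2; folds of 7.56 to 29.4), so that none of its sites ranked in the first 20 percent, whereas 7 did in chr 1a and 4 each on chromosomes 8 and 14.

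Weak regions could be crowded outside chr 1a too. On chromosome 8, 35 regions followed one another at less than 5 kb over 46.1 kb, at chr8:74323285-74369429. None was found in more than 4 libraries, and no fold there was above 6.35. FS_Ca replicate 2 had 18 peaks in it, PS_Ia replicate 2 had 12, PS_Ca replicates 1 and 2 had 9 each, PS_Ia replicate 1 had 6 and the others 1 or 2. The longest such run on chromosome 14, at chr14:70387539-70438568, had 31 regions and 1 shared one, and PS_Ia replicate 2 supplied 24 peaks. The longest of chr 1a had 19 regions of which 9 were shared, and every library had 19 to 25 peaks in it.

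Recurrence also differed between chr 1a and the other windows when regions were drawn from overlaps. The number found in all 8 libraries is what chose the windows, but the regions of 4 to 7 libraries were not used. They made up 35 of 108 regions in chr 1a (32.4%), against 121 of 1067 (11.3%) in the other 10 windows and 17.9% of all regions. Among the 10 it ran from 7.25% (chr 11a) to 18.0% (chromosome 7). Regions of a single library were 30 in chr 1a (27.8%) and 590 in the others (55.3%), beside 52.6% of all regions. These shares are descriptions, with no test, because regions of one stretch are not independent. They are taken over all regions, among them those of all 8 libraries that chose the windows, so they are not free of that choice. Regions are merged on 1 bp of overlap, and peaks covered 14.3% to 52.1% of the occupied part of chr 1a, depending on the library. How much overlap between lists that coverage alone would give was not tested. With regions from summits, chr 1a had 9 shared regions instead of 21, and the other windows 10 to 19 instead of 14 to 18. The shares above are not given for that setting.

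The share of each list that fell in the windows was compared between the levels of each factor. The windows were chosen for regions present in all 8 lists, so every library has peaks in the 170 shared regions whatever its genotype. A short list holds them among fewer peaks, so the share can depend on list length. The p-values below therefore cannot show that the windows are free of a difference between genotypes. Ia libraries had 21.1 ± 0.637 and Ca libraries 22.2 ± 4.09 peaks in the 11 windows per 1000 listed (SD, n = 4 each), a difference of -1.13 that was smaller than the SD of the Ca libraries (exact two-sided permutation test, p = 0.857). By switch length, PS libraries had 22.1 ± 4.17 and FS libraries 21.2 ± 0.313 (SD, n = 4 each; exact permutation p = 0.943). PS_Ca replicate 2, at 28.2 per 1000, lay above the other 7, which ranged from 18.8 to 21.6. Without it the differences were 0.848 for orientation and -1.13 for switch length, both of the opposite sign. Without chr 1a, Ia minus Ca was 0.780 and PS minus FS 0.122, and within the prefix sets Ia minus Ca was 0.506 (FS), 1.35 (PS replicate 1) and -6.89 (PS replicate 2). In chr 1a alone, the mean was 116.5 ± 7.0 peaks over PS libraries and 99.2 ± 17.3 over FS libraries (SD, n = 4 each; exact permutation p = 0.0857, adjusted over 14 comparisons 0.943, where 0.0286 is the smallest that 4 against 4 allow).

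The ranks of the windows' shared regions overlapped between the levels of both factors. Their median rank per library, taken over the same 6747 regions in every list, was 48.7 ± 7.65 in Ia and 52.3 ± 5.66 in Ca libraries, and 50.0 ± 4.44 in PS and 51.0 ± 8.85 in FS libraries (SD, n = 4 each). The differences, -3.51 and -1.0, were smaller than the SD within the groups. In chr 1a the median rank ran from 14.2 (PS_Ia replicate 2) to 67.4 (FS_Ia replicate 2). Taken window by window, 0 of the 11 had a p of 0.05 or less for orientation, beside 3.06% of the 589 windows of the genome with at least 5 shared regions, and 0 for switch length, beside 1.19% (exact permutation of 4 against 4 libraries). After Benjamini-Hochberg adjustment over all 1178 tests, the lowest value of any window was 0.965.

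Single regions were compared by asking whether the 4 ranks of one level lay wholly above those of the other. By orientation 8 of the 170 shared regions did so (4.71%), beside 2.71% of all shared regions: 4 ranked better in Ia, beside 1.33%, and 4 in Ca, beside 1.38%. By switch length 7 did so (4.12%), beside 2.89%: 1 ranked better in PS, beside 1.27%, and 6 in FS, beside 1.62%. These counts are small, and their distance from the background was not tested. Of the 1175 regions of the windows, 0 had a peak in all 4 libraries of one level and none of the other, beside 0.0247% (Ia only), 0.0232% (Ca only), 0.0401% (PS only) and 0.00772% (FS only) of all regions. No region of chr 1a was among the 15.

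Of the regions whose ranks did not overlap by orientation, chr1:133156334-133158183 differed most. It ranked at 29.3 and 46.4 in FS_Ca and 57.3 and 59.9 in PS_Ca, but at 98.2 and 90.3 in FS_Ia and 97.8 and 73.9 in PS_Ia. The highest Ca value, 59.9, was thus below the lowest Ia value, 73.9. Its summits were only 5 to 20 fragments high. Heights are whole fragments and equal folds share a rank, so ranks of such regions move in coarse steps. A difference in rank, here and by switch length, can therefore rest on few fragments. The next 2 that were stronger in Ca were chr19:10272749-10273762 (mean rank 61.9 ± 8.97 in Ca and 92.8 ± 4.48 in Ia) and chr7:25601542-25603418 (50.6 ± 7.12 and 79.2 ± 5.37; SD, n = 4). Stronger in Ia were chr7:25226520-25227837 (51.6 ± 9.88 in Ia and 90.1 ± 4.90 in Ca), chr4:140300107-140301232 (47.8 ± 24.3 and 79.2 ± 5.50) and chr7:25257165-25259924 (42.8 ± 13.6 and 74.1 ± 8.17). These 2 neighbours on chromosome 7 are next to each other among the shared regions, 31.8 kb apart.

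By switch length, 6 of the 7 were stronger in FS. The best site of the chromosome 2 window, chr2:26501770-26503376, ranked at 11.9 and 8.37 in FS_Ca and 3.56 and 1.56 in FS_Ia, and at 38.6 and 59.9 in PS_Ca and 44.6 and 16.4 in PS_Ia. The others with the largest differences were chr10:79230543-79231919 (mean rank 27.4 ± 6.58 in FS and 59.3 ± 15.6 in PS) and chr11:3413486-3415032 (56.5 ± 13.7 and 86.1 ± 5.15; SD, n = 4). The single region stronger in PS was the best site of chr 1b, chr1:133450776-133453123. It ranked at 9.88 and 8.88 in PS_Ca and 1.87 and 5.23 in PS_Ia, and at 23.8 and 24.4 in FS_Ca and 56.8 and 40.9 in FS_Ia. These regions were picked for their differences, so the values describe them and are no test, and the prefix set was not tested apart from switch length.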

How the data were processed

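Rad21 ChIP-seq peak lists of 8 libraries were used as deposited, 1 list of 10 columns per library. Per the submitters' processing notes, the build was mm9 and the tools included MACS2 2.2.7.1 and Bowtie2 2.4.4, besides deepTools 3.5.1 and SAMtools 1.15.1. No peak threshold, read filter or control is given in the sources used here. The authors' lists give a score, the fold enrichment as a ratio, the −log10 p and −log10 q, and how far the summit lies from the peak's start. They were used to describe and rank peaks within a list.

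Peaks overlapping by at least 1 bp were merged, and the strongest peak stood for each library. Percentile ranks (0 is the strongest) were taken within a library over the 6747 shared regions, so list length does not enter; equal folds share a rank. Positions are the mean of the 8 summits. Heights follow from fold = (height + 1)/(background + 1), and all were whole within 0.01 below 60 fragments. Values per library were tested with all 70 assignments of 4 against 4 (exact, two-sided). No p is given for the median rank over the members and none adjusted over the 11 windows alone, although both had been planned.

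The windows and lists were chosen with earlier results of these data known. Named regions are, per window, the best-ranked and widest shared region, the closest pair and the widest gap, runs of at least 3 with gaps under 5 kb, regions with at least 2 multicopy signs, and up to 3 regions per factor and direction whose ranks do not overlap. Not every one is printed, and the runs of weak regions were added after seeing the data. Without an mm9 genome, no gene was assigned and no sequence read. The alternatives were a −log10 q of at least 5, lists of equal length (11288 peaks), regions from summits ± 100 bp, ranks by −log10 p, a replicate block, prefix sets and each library left out, and, after seeing the data, chr 1a left out. The code was tested on simulated data; it used scipy 1.17.1, pandas 2.3.3, matplotlib 3.10.9, numpy 2.4.6 and Python 3.11.15.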

Additional observations from a re-analysis of the deposited data

How the results depend on the processing

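chr 1a kept the shortest median gap of the 11 windows under every alternative run: 10.9 kb with −log10 q of at least 5, 5.98 kb with regions of at least 7 libraries, 16.4 kb with gaps under 5 kb joined and 24.3 kb with regions from summits, where 9 sites were left. No difference in the share of the list or in median rank passed 0.05 in any setting. The switch length difference in median rank changed sign, to 0.436 at the stricter threshold, 3.97 with regions from summits and 0.867 without chr 1a, and ranged from -4.72 to 2.68 with each library left out, turning positive without FS_Ca replicate 1, FS_Ia replicate 1, PS_Ca replicate 2 or PS_Ia replicate 2. The orientation difference in the share of the list changed sign without chr 1a (0.780) and ranged from -2.27 to 0.848, positive only without PS_Ca replicate 2. That of switch length ranged from -1.13 to 1.99, negative only without the same library, and orientation in median rank from -5.50 to -0.0473. Regions whose ranks do not overlap by orientation numbered 2 at the stricter threshold and 4 in lists of equal length, and 9 to 16 with a library left out (10 to 20 by switch length), where 3 against 4 libraries overlap less easily. Windows with p of 0.05 or less numbered 1 in lists of equal length and 0 to 1 with a library left out. The cause of these changes was not tested. With the replicate block (labels permuted within replicate numbers), p for the share of the list was 0.833 for orientation and 0.944 for switch length, with the differences -1.13 and 0.893 as before, and no call changed. The deviations of same-numbered libraries had r from -0.202 to 0.325 over the 6 pairs of genotypes. With 2 libraries per genotype, these values cannot tell whether the number pairs libraries. In PS, each number has its own peak-name prefix. With labels permuted within prefix sets, p for the share by orientation was 1. With gaps under 2 kb and the top 5%, chr 1a still had 5 regions with at least 2 multicopy signs and the other windows 1. Summits of 3 to 5 fragments limit what the short lists can show.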
